A study of Homo sapiens with 16 samples.

Results

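The regions bound by ZBTB7A in K562 cells are those of 1 peak list, made by the authors from 4 ChIP libraries and 4 control libraries. A region is a stretch of genome with more sequenced fragments in the ChIP than in the control. All regions on the standard chromosomes were taken and identical intervals were counted once, which left 17331 distinct regions of the 85461 in the 4 lists of the series. ChIP-seq (chromatin immunoprecipitation with sequencing) recovers DNA crosslinked to a protein and so locates that protein on the genome. K562 is an established human erythroleukaemia line, and no genotype change or treatment was given for these libraries. The ChIP libraries were labelled with ZBTB7A antibodies from Santa Cruz Biotechnology and eBioscience together. The controls were titled input but carried the label of a control immunoglobulin (IgG), so which of these they were is not settled by the labels. The 8 other libraries of the series, for BCL11A or ZBTB7A in the HUDEP-2 erythroid progenitor line, are used here only for a few values from the BCL11A list. That list (2 ChIP and 2 control libraries) comes from HUDEP-2 cells with an inducible, tagged fusion, BCL11A-ER-V5, switched on by 4-hydroxytamoxifen for 24 h and pulled down through its V5 tag.

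ZBTB7A, also called LRF or Pokemon, is a transcription factor with a BTB domain, which pairs the protein and recruits corepressors, and zinc fingers that bind GC-rich DNA. In erythroid cells it is known as a repressor of the fetal γ-globin genes and as a factor needed for terminal red cell maturation, and its gene is a target of GATA1. A transcription factor's bound regions are commonly sorted into promoters at the transcription start site (TSS), gene bodies and distal sites, the last of which include enhancers.

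The list joins the replicates and holds no value per region, so no spread between replicates can be given and no test between samples was possible. Read depth is unknown. A region's place in the file is called its order, with 1 for the first line. The authors' sorting key was not given in the sources used here. Intervals in parentheses are exact Clopper-Pearson 95% intervals and cover counting error only. Nearby regions are not independent of each other.

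Sequence near the middle of promoter regions was examined first. RefSeq promoter windows of 300 bases (250 before to 50 after a TSS, GRCh38.p14) were used for protein-coding genes. Of 22077 windows, 2721 that held the midpoint of a ZBTB7A region were used, and 15144 belonged to genes with no region within 1 kb of that TSS. Where a midpoint fell in several windows, only 1 of them was kept. The windows without a region were not thinned in this way. A word was counted on both strands and called near when its centre lay within 30 bp of the midpoint, which takes in 19.4% to 19.7% of the positions available. GACCACC, a word known for ZBTB7A from binding in vitro, had 68 of its 141 matches near the midpoint (48.2%, 39.7 to 56.8). Of the 10 words taken from known factors this was the highest share.

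A scan then ranked 772 words of 6 letters, with at least 300 matches each, by the share of matches near the midpoint. The 2 highest, GACCCC and AGGGTC, were taken as further words. They were picked because their matches lay near the midpoint, so their shares are a description. GACCCC had 470 of 1232 matches near (38.1%, 35.4 to 40.9) and AGGGTC 226 of 613 (36.9%, 33.0 to 40.8). Close behind came GACCAC (34.7%), CGACCC (34.4%), AGACCC (33.0%) and GGACCC (32.6%), which were not taken further. AGGGTC reads GACCCT on the other strand, so all 3 words share the letters GACC. No match of one of the 3 is also a match of another, although they can overlap at their ends.

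The best-ordered windows with such a word are printed to show how the words sit, 81 bases centred on the region midpoint. They were limited to stretches before the TSS and outside annotated transcripts, without chromosomes 8 and 11. Each is written 5′ to 3′ on the strand of the gene named, with coordinates of GRCh38.p14, and matches to the 3 words near the midpoint are in capitals.
SLC12A4, order 47, chr16:67968711-67968791, minus strand: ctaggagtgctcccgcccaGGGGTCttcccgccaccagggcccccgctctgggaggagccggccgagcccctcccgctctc
MRPL39, order 107, chr21:25607572-25607652, minus strand: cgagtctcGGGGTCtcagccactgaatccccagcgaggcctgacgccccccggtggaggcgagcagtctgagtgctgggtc
COX20, order 113, chr1:244835184-244835264, plus strand: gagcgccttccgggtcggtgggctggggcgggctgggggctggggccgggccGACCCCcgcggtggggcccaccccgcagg
SMIM7, order 136, chr19:16660308-16660388, minus strand: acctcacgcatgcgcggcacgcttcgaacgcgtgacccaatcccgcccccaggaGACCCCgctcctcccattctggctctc
DHX36, order 176, chr3:154324549-154324629, minus strand: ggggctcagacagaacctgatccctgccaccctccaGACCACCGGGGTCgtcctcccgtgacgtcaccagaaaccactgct
GMNN, order 199, chr6:24774745-24774825, plus strand: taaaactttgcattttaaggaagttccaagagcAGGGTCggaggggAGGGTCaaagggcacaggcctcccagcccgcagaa

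The genes are SLC12A4, a potassium-chloride cotransporter of the red cell membrane, MRPL39 of the mitochondrial ribosome, COX20, an assembly factor of cytochrome oxidase, SMIM7, a small membrane protein, DHX36, a G-quadruplex helicase, and GMNN (geminin), an inhibitor of replication licensing. DHX36 carried GACCACC next to GACCCC in reverse, 1 bp from the midpoint, and GMNN carried AGGGTC at 2 places. The 3 best-ordered windows under the same limits without any of the 3 words near the midpoint are printed beside them.
CIB2, order 24, chr15:78131606-78131686, minus strand: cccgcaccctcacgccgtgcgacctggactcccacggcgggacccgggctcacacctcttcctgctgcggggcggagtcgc
POLG, order 46, chr15:89334916-89334996, minus strand: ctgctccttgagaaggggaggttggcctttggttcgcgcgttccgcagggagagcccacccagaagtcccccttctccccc
FBXW8, order 99, chr12:116910868-116910948, plus strand: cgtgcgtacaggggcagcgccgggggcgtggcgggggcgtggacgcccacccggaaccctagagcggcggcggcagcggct

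CIB2 encodes a calcium-binding protein, POLG the mitochondrial DNA polymerase and FBXW8 a subunit of a ubiquitin ligase. Windows without the 3 words can hold others of the scan, and CIB2 had GGACCC across its midpoint. At least 1 of the 3 words was near the midpoint in 700 of all 2721 windows (25.7%, 24.1 to 27.4). Dividing the windows by order into 3 groups, the share was 32.1% (29.4 to 35.0), 23.9% (21.2 to 26.9) and 18.5% (15.7 to 21.4). It fell down the list, and the interval of the first group overlapped neither of the others. GACCCC and AGGGTC were picked in these same windows, so these shares are a description. Among the 50 windows of best order, 18 had such a word (36.0%, 22.9 to 50.8). GACCCC counted anywhere in the window also fell over the 3 groups (43.55%, 34.99% and 26.95%). So did AGGGTC (22.96%, 19.98% and 15.77%) and GACCACC (7.228%, 3.837% and 3.504%). These counts include the near matches. Whether the fall was one of nearness or of word content was not tested.

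Words of other factors were spread differently. CCCTTCCC, the word of the γ-globin element at about -200, had 28.0% of its 293 matches near the midpoint (22.9 to 33.5), above the share of positions. The ETS word CCGGAAG stood at 21.7% (18.8 to 24.9), the SP and KLF word GGGCGG at 21.8% (20.7 to 22.9) and the GATA word AGATAA at 21.0% (14.5 to 28.8). Of these last 3 words, GGGCGG had an interval just above the share of positions, and the intervals of the others took it in. The CCAAT box word ATTGG was at 13.5% (11.7 to 15.6), below it. The E-box CACGTG (17.7%), the AP-1 and NFE2 word TGAGTCA (17.5%) and the CREB and ATF word TGACGTCA (15.6%) had intervals that took in the share of positions. The NRF1 word GCATGCGC was at 14.1% (9.71 to 19.5), which just reached it. Base composition changes along a promoter and was not matched.

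Counted anywhere in the window, GACCCC was found in 36.2% of windows with a region midpoint, 17.4% of windows without a region and 21.0% of all windows. For GACCACC these shares were 5.11%, 2.61% and 2.99%, for AGGGTC 20.03%, 13.4% and 14.2%, and for CCCTTCCC 10.1%, 6.85% and 7.57%. GGGCGG was in 80.3%, 46.7% and 56.3%, and CCGGAAG in 21.6%, 9.83% and 12.8%. CACGTG was in 10.8%, 7.44% and 8.32%, TGACGTCA in 3.34%, 1.85% and 2.25%, and GCATGCGC in 4.96%, 2.88% and 3.71%. AGATAA (4.81%, 9.59% and 7.93%), TGAGTCA (3.42%, 4.51% and 4.02%) and ATTGG (29.5%, 35.2% and 34.7%) were less frequent with a region than without. Base composition was not matched between windows with and without a region, and its part in these shares was not tested. A match describes letters and does not locate bound protein.

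Most of the list lay away from promoters, although promoters were by far the densest class. A region was called a promoter region when its midpoint lay within 1 kb of the TSS of a protein-coding transcript. There were 7655 such regions (44.2%, 43.4 to 44.9). Gene bodies held 4409 (25.4%, 24.8 to 26.1), and 5267 were distal, outside both (30.4%, 29.7 to 31.1). In the BCL11A-ER-V5 list of HUDEP-2 cells the same classes held 42.2%, 31.3% and 26.5% of 12911 regions. These lists differ in protein, cell line, antibody, and the use of an induced tagged fusion in place of the cells' own protein, which cannot be told apart, and no test was made.

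Per length of genome, and without chromosome 11, where exons were not used, promoter sequence held 176 regions per megabase and gene bodies 3.75. Within gene bodies, 5′ UTR exons beyond the promoter window had 27.0 per megabase, though from 23 regions only. First introns had 5.74 (1704 regions), coding exons 7.45 (214) and 3′ UTR exons 7.62 (207). Introns after the first had 2.63 (1933 regions). First introns thus held 41.8% of gene body regions.

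Promoter regions were centred on the TSS. The median midpoint lay 16 bp downstream, with quartiles 162 bp upstream and 264 bp downstream, and 47.9% were upstream. Density was 10.9 regions per bp from 50 bp upstream to 50 bp downstream, 10.1 from 200 to 51 bp upstream and 7.65 from 51 to 200 bp downstream. In the outermost stretches it was 1.16 per bp upstream and 1.90 downstream. The median distance to the TSS, regardless of side, was 176 bp in the first decile of the order and 231 bp in the last.

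**Figure D1:**
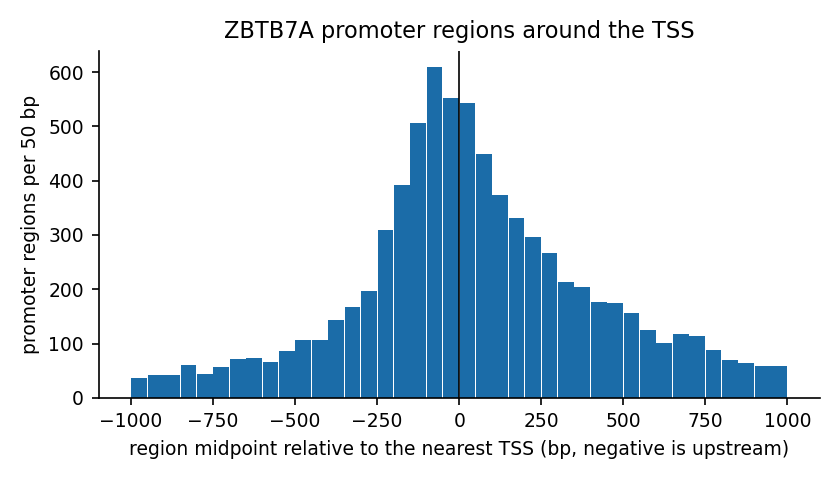
Number of promoter regions per 50 bp (vertical axis) by the position of the region midpoint relative to the nearest TSS, in bp, negative values upstream. The 7655 regions pile up around the TSS, and the downstream side falls off more slowly than the upstream side.

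Of the promoter regions 805 (10.5%) lay within 1 kb of the TSSs of 2 or more genes, and 767 of these had genes on both strands. An example is the region at order 16 (chr14:23094978-23095630, 653 bp), with its midpoint 170 bp upstream of C14orf119 and inside the start of ACIN1, a splicing-associated protein cleaved in apoptosis. Another at order 22 (chr17:28335393-28335898) lay 123 bp downstream of the TSS of TNFAIP1, an adaptor of a cullin ubiquitin ligase that shares its promoter with IFT20, a ciliary transport protein.

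Other promoter regions of best order belonged to genes of varied function. Order 6 (chr17:4703926-4704428) was 160 bp downstream of the TSS of PELP1, a nuclear receptor coregulator. Order 8 (chr5:176447668-176448450) was 296 bp upstream of FAF2, which takes part in degradation at the endoplasmic reticulum. TRAF4, an adaptor of the TNF receptor family, had order 10 (chr17:28744249-28744768), and RTN4, which shapes the endoplasmic reticulum, order 12 (chr2:55050541-55051276). CDC27, a subunit of the anaphase-promoting complex, had order 14, with a region of 917 bp 9 bp from its TSS (chr17:47188863-47189779). ZNF582, a zinc-finger gene, followed at order 20 and SRF, the serum response factor, at order 21 (chr6:43171102-43171648).

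The gene body regions of best order described here were intronic. The first was order 3, in an intron of GNAO1, a G protein subunit (chr16:56194294-56194862). Others were in RBM19, a ribosome biogenesis factor (order 11), FAM46D (17), the neural transcription factor gene MYT1 (19), ZMAT4 (27), the antizyme gene OAZ2 (28) and FAM178B (39). Order 41 fell in an intron of NPRL3 (chr16:113311-113848), 39.3 kb before the TSS of the embryonic globin gene HBZ. Introns of NPRL3 are known to hold the distant enhancers of the α-globin cluster. Order 43 lay in STAT3, a cytokine-activated transcription factor (chr17:42319785-42320445), 32.1 kb from the TSS of STAT5A, the nearest by distance.

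The distal class held the first 2 regions of the whole list. Order 1 (chr6:16031172-16031751) was 97.6 kb from its nearest TSS, that of MYLIP, a ubiquitin ligase for the LDL receptor. Order 2 (chr6:137863106-137863669) was 3.80 kb upstream of TNFAIP3, the NF-κB inhibitor A20. Order 7 (chr8:127898367-127899240) was 163 kb downstream of the TSS of MYC. The nearest TSS names a neighbour, not a target. Those of the others were LARP1, an RNA-binding protein (order 9, 58.8 kb), DRAM1, a lysosomal protein (13, 21.7 kb), KRBA1 (15, 90.1 kb), PLPP7 (18, 41.6 kb), the muscle gene MYOM2 (23, 689 kb), RTN4 again (25, 2.81 kb) and the FGF decoy receptor FGFRL1 (26, 31.4 kb).

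Over all distal regions the median distance to the nearest TSS was 24.4 kb. Between 10 and 50 kb lay 42.2% of them (40.8 to 43.5), 16.7% lay between 1 and 5 kb, and 91 (1.73%) were over 500 kb away, the farthest at 2926 kb. Gene body regions had a median distance of 11.7 kb.

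The make-up changed along the order. Promoter regions were 47.3% to 49.1% of each of the first 4 deciles, fell to 38.3% (36.0 to 40.6) in the ninth decile and stood at 47.6% (45.2 to 50.0) in the last. Gene body regions were 20.4% of the first decile and 28.6% of the ninth. Width changed too. The median fell from 466 bp in the first decile to 256 bp in the seventh decile, and was 490 bp in the last 2 deciles.

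That last value is a fixed width. Exactly 490 bp were taken by 3483 regions (20.1%), whereas the next commonest width, 243 bp, was taken by 87. The share of regions of 490 bp grew from 0.288% in the first decile to 74.4% in the last, and their median order was 14828. In the last decile promoters made up 44.3% of regions of 490 bp (41.6 to 47.1) and 57.1% of the others (52.4 to 61.8). How the ends of regions were set was not given in the sources used here.

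The list also held repeats. Of 18183 lines on standard chromosomes, 852 repeated an interval already listed, and 801 regions were listed more than once, up to 5 times. Repeated regions were wider (median 636 bp against 339 bp) and early in the order (median 3063). They were 6.78% of promoter regions, 3.53% of distal and 2.18% of gene body regions. Apart from these, 3414 regions (19.7%) overlapped another region without being identical to it. Merging all overlaps left 15595 separate sites that covered 6.15 Mb. A count of regions is therefore not a count of sites, and both are given where it matters.

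By gene, 6393 of 19337 protein-coding genes (33.1%) had a promoter region, which is the background for the lists of genes that follow. More than 1 promoter region was found at 1752 genes and more than 2 at 274. No set test was made, and all lists were drawn up with earlier results of these data known. A share above the background is a description.

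Among 20 erythroid transcription factors and partners of the GATA1-TAL1 complex, 16 had a promoter region. The best-ordered were TCF3, the E protein that pairs with TAL1 (order 103), STAT5B, which acts downstream of the erythropoietin receptor (369), and KLF1, the erythroid Krüppel-like factor (1146). The median best order of the 16 was 1836, against 6574 for all genes with a promoter region. An early median was not particular to this list, since that of the aminoacyl-tRNA synthetases below was 1799. Among the pathway lists only glycolytic genes (7041) and ribosomal proteins (7419) had a median later than 6574. The 4 erythroid factors without a promoter region, BCL11A, GATA1, MAFK and STAT5A, each had a region within 10 kb of the gene.

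Regions around some of these factors were listed individually, for genes picked after the values were seen. KLF1 had 3 promoter regions, 428 bp upstream and 114 bp and 966 bp downstream of its TSS. Those at 428 bp and 114 bp overlap and form 1 site. GATA1, the master regulator of red cell genes, had regions 3540 bp upstream (order 1782) and 3139 bp downstream (order 4739). GATA2, which GATA1 replaces during maturation, had 1 region of 1596 bp at one of its TSSs (order 1601). It had 3 more between 2454 and 4883 bp upstream of another of its TSSs, the nearest one to them. TAL1 had a region 108 bp from its TSS (order 1742). Within 50 kb of its TSS BCL11A had a single region, 3793 bp upstream and at order 11512.

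ZBTB7A's own gene had 4 regions within 50 kb of its TSS. The best, at order 1106 (chr19:4066963-4067975), lay 524 bp upstream, and a second promoter region lay 569 bp downstream. Another lay inside the gene, 7035 bp downstream of a different TSS of ZBTB7A. The fourth was 22.2 kb upstream of the TSS used for the promoter regions.

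The best-ordered globin promoter region was at HBQ1, the θ-globin gene of the α-globin cluster (order 873, chr16:180199-180568). HBZ, the embryonic α-like globin, had 2 (orders 4925 and 15133), which overlap and form 1 site. Around HBG1, one of the γ-globin genes, 3 regions lay within 50 kb. They were 3023 bp upstream of its TSS (order 15129, chr11:5252636-5253125), 31.0 kb upstream (order 2550, chr11:5280690-5280992) and 38.4 kb upstream (order 16308). The region at order 15129 had the TSS of HBG2 as its nearest, and those at orders 15129 and 16308 were 490 bp wide. The outer pair lies beyond HBE1, on the side where the locus control region is known to be. No region midpoint lay within 1 kb of the TSS of HBG1, HBG2, HBE1, HBA1 or HBA2. HBG1 and HBG2, like HBA1 and HBA2, are near-identical copies, so reads that fit both cannot be assigned with certainty.

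Of 22 subunits of NuRD and other corepressors, complexes that ZBTB7A is known to work with, 15 had a promoter region. The best were MTA2 (order 44) and MBD3 (1735), both of NuRD, and the deacetylase HDAC2 (2060). CHD4, CTBP1 and NCOR1 had no region within 10 kb.

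Of 24 genes of heme synthesis and iron handling, 19 had a promoter region. FTH1, the ferritin heavy chain, had order 112, TFR2, the second transferrin receptor, 345 and ABCB10, a mitochondrial transporter of heme synthesis, 560. ALAD, UROS, UROD, CPOX and PPOX, which encode enzymes of the pathway, each had one. ALAS2, the erythroid enzyme of the first step, had 2 regions within 10 kb but none at its TSS, and ALAS1, its counterpart in other tissues, had none.

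In the NF-κB pathway 16 of 21 genes had a promoter region, led by TRAF4 (order 10), TNFAIP3 (354) and REL, a DNA-binding subunit (464). TNFAIP3 had 3 promoter regions beside the distal one at order 2. Of the family of BCL2, which sets the threshold for apoptosis, 12 of 20 had one. They were led by BCL2L13 (order 79), the survival gene BCL2L1 of erythroid cells (519) and the death gene BBC3 (763). ZBTB7A is known to act on BCL2L11 in erythroid cells, and that gene had 1 promoter region, at order 11560.

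Of 24 Notch pathway genes 14 had a promoter region, with POFUT1, which fucosylates Notch (1288), HES4, a target gene (1416), and the ligand gene JAG2 (2079) first. For ETS factors it was 13 of 23, led by ETV1 (132), SPI1 (531) and the repressor ETV3 (1737). Of 19 glycolytic genes 12 had one, with ENO1 (1235), HK1 (2813) and ALDOA (2981) first.

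Lists of housekeeping genes were also above the background. Splicing factors had 15 of 25, led by ACIN1 (16), HNRNPR (141) and U2AF2 (161). Aminoacyl-tRNA synthetases, which load amino acids onto tRNA, had 10 of 20, led by VARS (165), DARS (898) and YARS (902). Cytosolic ribosomal proteins had 16 of 35, with RPLP0 at 214 and RPS20 at 1445. All 11 of these pathway lists stood above 33.1%, from 45.7% for ribosomal proteins to 80.0% for erythroid factors.

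Markers of cell types were read the same way. Erythroid markers had a promoter region in 9 of 20 genes, led by KLF1, the red cell ankyrin gene ANK1 (1470) and the glycophorin gene GYPC (1888). Megakaryocyte markers had 2 of 15 (ITGB3 at 12174 and ITGA2B at 15807), although megakaryocytic features are known in K562. T and B lymphoid markers had 3 of 20, of which the best, RAG1 at order 4754, shares its region with TRAF6, and the others were CD79A (6375) and CD79B (14838). Myeloid markers had 1 of 15 (LYZ, 7721), neuronal markers 4 of 16 (TUBB3 at 2958, GAD1 at 6740 and DLG4 at 9173 among them) and hepatocyte markers 0 of 18.

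Some genes gathered many regions. Counting from 10 kb before to 10 kb after a gene, 49.1% of gene places had at least 1 region, 702 had 5 or more and 37 had 10 or more. By sites, with overlaps merged, 454 places had 5 or more and 21 had 10 or more. CMIP, a signalling adaptor gene of 267 kb, had the most, 20 regions in 17 sites, 6 of them promoter regions. CDH23, a long cadherin gene of 419 kb, had 17 regions in 16 sites. AHDC1 had 15 in 12 sites and NFIC, a nuclear factor I gene, 15 in 13.

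A further 6 genes had 14 regions each. They were BCOR, a corepressor that binds BCL6 (11 sites), SEPTIN9, of the cytoskeleton (13), CUX1, a homeobox repressor (12), ZBTB7B, the close relative of ZBTB7A that directs T cells to the helper fate (11), PLEC, a cytoskeletal linker (12), and ARID3A, a DNA-binding protein (13). BCOR, whose best region had order 51, had no promoter region, so all 14 lay elsewhere in or near the gene. A long gene has more room for regions. Per 100 kb of gene with flanks, ZBTB7B had 30.6 sites and ARID3A 19.5, against 3.64 for CDH23 and 2.46 for CUX1.

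Genes were also ranked by promoter regions, counted as listed and without merging overlaps. PLEC had 9, PDE4A, a cyclic AMP phosphodiesterase, and CMIP 6 each, and SEPTIN9, the bromodomain gene BRD2 and SOD2, the mitochondrial superoxide dismutase, 5 each. FAM178B, EML2, MSI2 and CLIC1 had 4 each. A gene with more annotated start sites has more promoter sequence in which a region can fall. Start sites per gene were not counted here, and their part in this ranking was not tested.

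Regions were spaced unevenly. Neighbouring midpoints were a median of 25.5 kb apart, with quartiles of 3.50 and 98.5 kb, and 35.3% of neighbours were at most 10 kb apart. After merging overlaps the median was 33.3 kb and 28.1% of sites had their next neighbour within 10 kb. Spacings up to 1 kb made up 15.5% of pairs of regions and 5.76% of pairs of sites, so most of the shortest spacings came from overlapping regions.

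**Figure D2:**
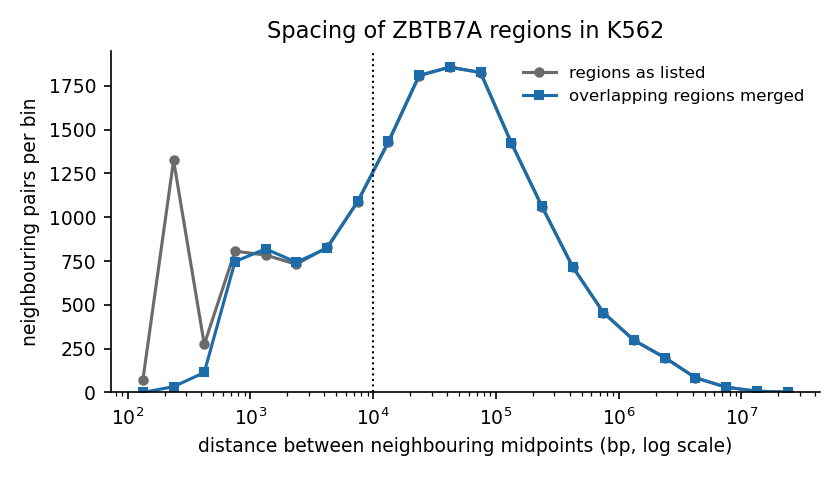
Number of neighbouring pairs per bin of the distance between midpoints (bp, log scale), for regions as listed and after merging overlaps. The dotted line marks the 10 kb used to link clusters. The narrow peak below 1 kb of the listed regions was absent after merging, while a shoulder from about 1 kb upward was kept.

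Regions or sites were linked into clusters when midpoints were at most 10 kb apart. In this way 9807 regions (56.6%, 55.8 to 57.3) fell into 3694 clusters, and 7141 sites (45.8%, 45.01 to 46.6) into 2771. Of the clusters of sites 1926 were pairs and 176 had 5 or more. Promoters were 42.1% of clustered sites (40.9 to 43.2) and 43.5% of single ones (42.4 to 44.6), with overlapping intervals. Gene bodies were 27.2% (26.2 to 28.3) and 25.02% (24.1 to 26.0), without overlap.

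The cluster with most regions spanned 36.0 kb of chromosome 19 (chr19:1240206-1276215), with 18 regions in 15 sites. It covers ATP5D, a subunit of ATP synthase, C19orf24, CIRBP, a cold-inducible RNA-binding protein, and MIDN. Its regions were split evenly, 6 promoter, 6 gene body and 6 distal. A second on the same chromosome (chr19:18385854-18441960) held 17 regions in 15 sites at GDF15, a stress-induced hormone made by maturing erythroid cells, ISYNA1, LRRC25 and SSBP4. Another there, at ARID3A, GRIN3B and WDR18, held 15 regions in 15 sites.

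On chromosome 6, 16 regions in 13 sites covered the chaperone gene HSP90AB1, the NF-κB inhibitor gene NFKBIE, the nucleoside transporter gene SLC29A1 and SLC35B2 (chr6:44219365-44265866), 9 of them at promoters. ZBTB7B and LENEP shared 14 regions in 11 sites within 24.5 kb of chromosome 1. MEPCE, NYAP1, PPP1R35, TSC22D4 and C7orf61 on chromosome 7 shared 13 in 12 sites, with a best order of 48. PRX, SERTAD1 and SERTAD3 had 13 in 11 sites, NFIC 11 in 9 and KLF16, REXO1 and ABHD17A 11 in 10, all on chromosome 19.

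One large cluster covered no protein-coding gene. It held 13 regions in 10 sites within 21.2 kb of chromosome 16 (chr16:85552945-85574193), all distal, and its nearest TSS was that of GSE1, 47.9 kb away. Its regions had a median order of 3605 and a best of 1046. By sites, 2 more clusters entered the 10 largest. One held 10 sites around DDIT4, a stress-induced inhibitor of mTORC1, with 8 of them distal, and the other held 10 around ZFP36, PAF1, MED29, PLEKHG2 and SAMD4B, where ZFP36 encodes an mRNA-destabilising protein.

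**Figure D3:**
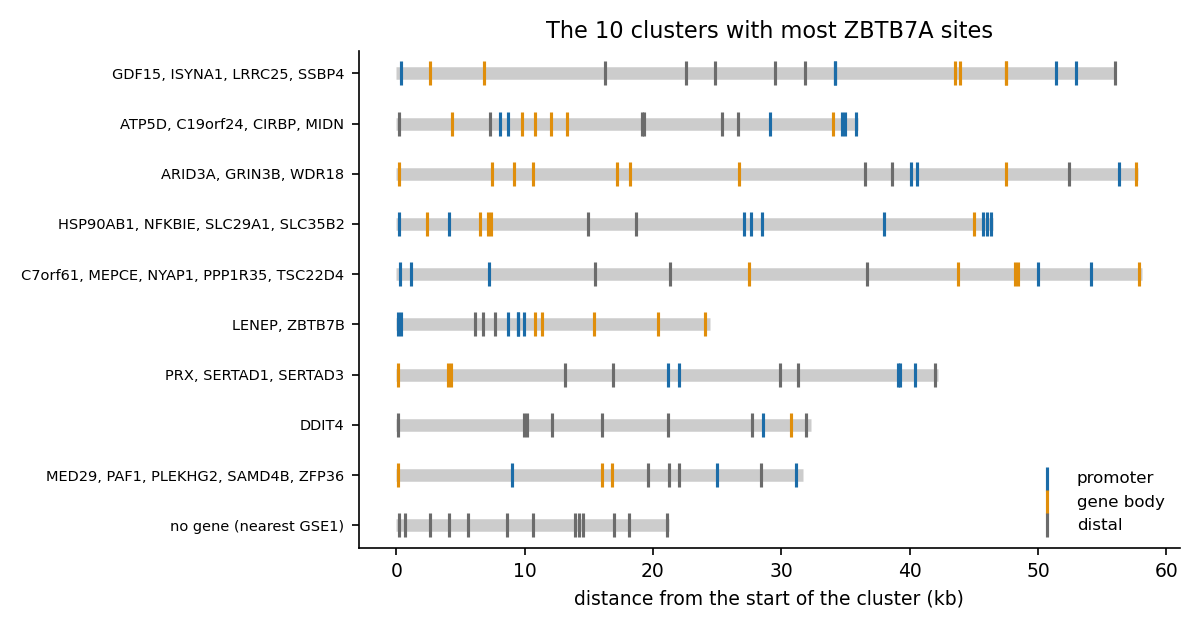
The 10 clusters with most sites, each drawn from its start (kb on the horizontal axis), with a tick at the midpoint of each region coloured by class. The cluster near GSE1 has distal regions only, whereas those on chromosome 19 mix all 3 classes.

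Chromosomes differed in coverage. Chromosome 6 had the highest share of genes with a promoter region, 41.4% (38.3 to 44.5), and 1.24 regions per gene. Chromosome Y held no region and was left out of this comparison. Of the chromosomes with a region, X had the lowest share, 18.4% (15.8 to 21.2), with 0.432 regions per gene. Chromosome 13 had 24.7% (20.03 to 29.8) and 0.491. Copy number, which is known to be uneven in K562, was not measured here, and its part in these values was not tested.

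The stretches without any region that held most genes were arrays of related genes in 4 of 5 cases. The first, on chromosome 11 (chr11:48061576-57126560), spanned 9.06 Mb with 63 genes, mostly olfactory receptors. Next came 55 genes in 0.841 Mb of chromosome 5, the protocadherin arrays, 48 in 0.683 Mb of chromosome 17, keratins and keratin-associated proteins, and 37 in 1.01 Mb of chromosome 1, genes of the skin's cornified layer such as FLG and the LCE and SPRR families. The BCL11A list had 0, 1, 3 and 0 regions in these stretches. How well reads from similar copies can be placed was not measured here, and its part in these empty stretches was not tested.

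The remaining stretch differed. It ran for 12.9 Mb of chromosome 9 (chr9:19465012-32384465) and held 39 genes, among them the interferon α genes, the cell cycle inhibitors CDKN2A and CDKN2B, MTAP, the angiopoietin receptor gene TEK and MLLT3. In the BCL11A-ER-V5 list of HUDEP-2 cells the same stretch had 9 regions. K562 cells are known to lack CDKN2A. DNA copy number was not measured here, and the part of protein, induced fusion, cell line and copy number in this difference cannot be told apart.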

How the data were processed

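Per the submitters' processing notes, the authors used Trimmomatic 0.3.2, Bowtie2 2.2.9, Bowtie, Picard and bedtools, with the build GRCh38 (hg38). The list's name says that replicates were combined by the irreproducible discovery rate. The peak caller and the threshold were not given in the sources used here. The deposited list holds intervals and no counts or scores, so depth is unknown.

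Regions were assigned with the authors' deposited RefSeq gene annotation (NM transcripts). For chromosome 11, which that annotation gives in a modified form, gene ends came from the RefSeq table of GRCh38.p14 (1265 of 1274 genes found) and exons were not used. Of 121 transcripts whose symbol a spreadsheet had turned into a date, 120 were renamed by accession. Identical intervals were counted once, and 17 lines on other contigs were left out. Coordinates are 1-based. Python 3.11.15, pandas 2.3.3, NumPy 2.4.6, SciPy 1.17.1 and matplotlib 3.10.9 were used, and the steps were tested on simulated data.

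Named were the 10 regions of best order in each class, the 10 genes with most regions and with most promoter regions, the 10 clusters with most regions, the 3 members of best order in each gene list and the 5 empty stretches with most genes. A few genes that these rules name are not reported here. Other genes named were chosen after their values were seen. The members, gene lists and rules were chosen with earlier results of these data known. Alternatives were promoter windows of 500 bp and 2 kb, NM and NR transcripts, any base in place of the midpoint, merged overlaps, the first 50% of the order, linking at 5 and 25 kb, genes without flanks, no chromosome 11 and, added after seeing the data, no regions of 490 bp.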

Additional observations from a re-analysis of the deposited data

How the results depend on the processing

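The list pools its libraries, so no replicate was left out and no test was run. No paired analysis was possible because the deposited list joins the replicates and holds no value per library. Depth is unknown, so the absence of a region at a gene is not shown to be absence of binding.

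The promoter share of 44.2% was 35.3% with a window of 500 bp, 49.7% with 2 kb, 47.0% with NM and NR transcripts, 45.6% by any base, 42.8% after merging overlaps, 47.0% in the first 50% of the order and 45.3% without regions of 490 bp. The gene body share of 25.4% was in the same way 31.5%, 21.7%, 27.6% and 24.7%, then 23.2% in the first 50% and 24.5% without regions of 490 bp. The distal share of 30.4% was 33.2%, 28.6%, 25.4%, 29.7% and, after merging, 31.1%. The clustered share of 56.6% was 47.4% for links of 5 kb, 71.1% for 25 kb, 45.8% after merging, 37.0% in the first 50% and 46.9% without regions of 490 bp. With fewer regions kept, neighbours lie farther apart by construction. The 6393 genes with a promoter region were 4009 in the first 50%, and between 5505 and 6825 with other windows or any base. Leaving out chromosome 11 moved none of these shares beyond its interval.

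Of 16 gene lists with at least 1 bound member, 14 stayed within 1.5 times of their count with a window of 500 bp and 12 in the first 50% of the order. The NF-κB list was at 10 in both, from 16. All 11 pathway lists stood above the share of all genes under both settings, which was 28.5% and 20.7%.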

Other observations

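MicroRNA genes were not part of the classes above, which rest on protein-coding genes. Of 1562 microRNA hairpins in the RefSeq table, 112 (7.17%) lay within 1 kb of the midpoint of a ZBTB7A region. Of 21 microRNAs known in blood cells, listed after the values were seen, 17 were found, and 4 of these lay within 1 kb. They were MIR223, a myeloid microRNA (77 bp, order 12989), MIR142, found in all blood lineages (166 bp, order 1377), MIR210, which responds to hypoxia (359 bp, order 4764), and MIR144, an erythroid microRNA (489 bp, order 9707). MIR126 lay at 1156 bp (order 7091). The cluster of MIR23A, MIR27A and MIR24-2 lay 2.40 to 2.56 kb from its nearest regions. MIR17 and MIR92A1, of an oncogenic cluster on chromosome 13, were 3082 kb from the nearest region, and MIR221 and MIR222 on chromosome X 774 and 775 kb.

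Of the 1736 neighbouring pairs of regions that overlapped without being identical, 495 (28.5%) stood next to each other in the order. At KLF1 the regions at orders 3243 and 3244 are such a pair. In the α-globin cluster both overlapping pairs within 50 kb of HBZ joined an early region with one of 490 bp late in the list. These were orders 4925 and 15133 at the HBZ promoter and orders 2567 and 16771, 9.66 and 9.43 kb upstream of its TSS.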
